A study of Mus musculus with 12 samples.

Results

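The genes described here encode the proteins of the cytosolic ribosome. They were taken from the array by gene symbol: every probe set with exactly 1 symbol in the platform annotation, where that symbol follows the Rpl, Rps or Rplp naming pattern of this family. Of 45037 probe sets other than controls, 98 met this rule, and they stand for 45 genes. These are 20 of the large (60S) subunit, 19 of the small (40S) subunit, 2 of the P stalk and the 4 paralogs Rpl3l, Rpl39l, Rps4l and Rps27l. Each gene is represented by its probe set with the highest mean signal over the 12 arrays. A further 110 probe sets list a family symbol together with other symbols, and these are given as counts only.

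Spleen RNA was measured on 12 Affymetrix arrays, 1 mouse per array, in 4 groups of 3 BALB/c mice. The groups were wild type at 1 month (wt 1m), Il1rn-deficient at 1 month (ko 1m), wild type at 4 months (wt 4m) and Il1rn-deficient at 4 months (ko 4m). Il1rn encodes the IL-1 receptor antagonist, a secreted protein that blocks IL-1 signalling, and the study's title asks for genes tied to phases of arthritis. The labels give no sex, no housing and no detail of how the gene was disrupted, and whole spleen was used, in which fewer cells of a type and less RNA per cell cannot be told apart. The p-values measure the spread between these mice.

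A ribosome is built from ribosomal RNA and many different proteins, nearly all of which are needed in equal numbers. Their mRNAs are among the most abundant in any dividing or secreting cell. Most begin with a run of pyrimidines, the 5′ terminal oligopyrimidine (TOP) motif, through which the mTOR pathway and Larp1 control their translation together. The family is known for its part in red cell formation, since loss of 1 copy of several members causes Diamond-Blackfan anaemia in people.

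The start sites were searched for pyrimidine tracts. RefSeq sequences (GRCm38.p6) were matched by symbol for 39 of the 45 genes, with 47 promoters in all, each covering 250 bases before and 50 bases after a transcription start. The search was for a C followed by 4 or more C or T, lying wholly within 15 bases either side of the start and read in the direction of transcription. Of the 47 promoters, 61.7% held such a tract, against 36.4% of all 32851 promoters in the table. A tract may end before the start, as that of Rpl4 below does, so these shares are not counts of TOP motifs. The windows below run from 15 bases before the start to 15 bases after it, with the longest tract in capitals. A shorter tract, such as a second one in the first Rps27l window, stays in small letters. The windows are shown because they hold the members on which the results turn, followed by the P stalk genes and some of the brightest members.
Rps27l, first start (chr9:66946071-66946100, plus strand): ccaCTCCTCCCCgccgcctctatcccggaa
Rps27l, second start (chr9:66946398-66946427, plus strand): accatgggcttcagggtcactaacgggcct
Rpl14 (chr9:120571502-120571531, plus strand): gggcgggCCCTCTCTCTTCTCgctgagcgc
Rpl37 (chr15:5116598-5116627, plus strand): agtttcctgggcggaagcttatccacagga
Rps25 (chr9:44407699-44407728, plus strand): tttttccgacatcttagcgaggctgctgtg
Rps10 (chr17:27635230-27635259, minus strand): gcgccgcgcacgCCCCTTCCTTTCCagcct
Rplp2 (chr7:141447636-141447665, plus strand): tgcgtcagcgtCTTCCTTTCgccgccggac
Rplp0 (chr5:115559452-115559481, plus strand): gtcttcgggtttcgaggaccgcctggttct
Rpl38 (chr11:114668565-114668594, plus strand): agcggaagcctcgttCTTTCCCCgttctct
Rpl4 (chr9:64173372-64173401, plus strand): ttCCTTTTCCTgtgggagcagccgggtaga
Rpl7a (chr2:26910792-26910821, plus strand): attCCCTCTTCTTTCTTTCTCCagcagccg
The windows without capitals hold no C followed by 4 or more C or T, which says nothing about how the mRNA is translated. That of Rps25 opens with pyrimidines whose run begins before the window.

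Other motifs were searched on either strand over the whole promoter, 250 bases before and 50 bases after the start. CGGAAG, the core bound by ETS factors such as GABP, was found in 61.7% of the 47 promoters and in 16.9% of all promoters. GGGCGG, the GC box bound by Sp1, was found in 48.9% against 35.7%, and CCATNTT, the core bound by YY1, in 29.8% against 16.1%. TATAAA, the TATA box, was found in 10.6% against 13.6%. The 100 bases before the start are shown for Rpl14, Rps27l and Rpl38, with CGGAAG and GGGCGG in capitals. Both motifs can share the letters CGG, in which case a promoter was counted for each.
Rpl14 (chr9:120571417-120571516, plus strand): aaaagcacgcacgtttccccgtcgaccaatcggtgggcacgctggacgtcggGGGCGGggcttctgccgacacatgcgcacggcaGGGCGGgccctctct
Rps27l, first start (chr9:66945986-66946085, plus strand): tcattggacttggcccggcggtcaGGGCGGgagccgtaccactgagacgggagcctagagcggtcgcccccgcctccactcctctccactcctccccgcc
Rpl38 (chr11:114668480-114668579, plus strand): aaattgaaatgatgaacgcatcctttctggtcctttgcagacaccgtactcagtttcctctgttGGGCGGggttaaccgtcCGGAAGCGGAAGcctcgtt
A match is a description of the letters and was not tied to binding in these spleens.

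Values are MAS5 signals scaled to a trimmed mean of 500, called scaled signals here. A probe set was tested if its scaled signal reached 100 on at least 3 arrays, which kept 27041 probe sets in all and 42 of the 45 genes, through 88 of their 98 probe sets. Log2 differences are of the scaled signal plus 32, and a probe set was called at a limma Benjamini-Hochberg adjusted p under 0.05 over all 27041. The targeted gene followed its label: an Il1rn probe set read 163, 143 and 120 in wt 1m against 23.6, 40.6 and 5.64 in ko 1m, and 188, 161 and 278 in wt 4m against 40.8, 10.1 and 14.8 in ko 4m. Its log2 difference was -1.70 ± 0.35 (SE) at 1 month and -2.17 ± 0.35 at 4 months (limma adjusted p = 0.0403 and 0.0034), and its other 2 probe sets were not called. Splenic markers were present throughout: 9 of 10 B cell genes and 9 of 10 T cell genes passed the filter, with summed signals of 26141 to 69442 and 6667 to 15632 per array. Pearson's r between arrays lay between 0.878 and 0.983. Replicate 2 of wt 4m stood apart in 4 measured pancreas genes, whose summed signal was 88178 there and 1226 to 2504 on the other arrays.

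Most members were among the brightest probe sets on every array. The mean scaled signal of 32 genes was above 10000, 15 from each subunit and both P stalk genes, and their median sat at the 99.8 percentile of all probe sets on each of the 12 arrays. The 5 brightest by mean were Rps29 with 37936, Rpl38 with 37856, Rpl4 with 33441, Rpl7a with 32638 and Rplp2 with 32275. All 98 probe sets together carried between 3.83% and 4.98% of the summed signal of an array. These are readings of different probes, so the order is not one of transcript levels.

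The other 13 genes read far lower. Among them were Rps27l with a mean of 6778, Rps25 with 1633, Rpl12 with 1211, Rps27 with 718, Rpl37 with 636, Rps6 with 493, the protein whose phosphorylation by S6 kinase marks mTOR activity, and Rpl14 with 371. The lowest of the tested genes was the paralog Rps4l with 168. The untested members were the paralogs Rpl39l with 46.9 and Rpl3l with 15.7, and the small subunit gene Rps16 with 4.84. Of these 13 symbols, 9 also appear on a bright probe set that lists several symbols, so a low reading here is that of 1 probe set and not of the gene's mRNA. Just above the value of 10000, which was chosen after the data were seen, stood Rpl11 with 13480, and just below it Rps27l.

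The bright members moved with a property of the arrays before any comparison of groups. The highest signal on an array lay at 37921 or below on 6 arrays and at 51247 or above on the other 6, and these are called the low and the high array set. The low set held all 3 ko 1m arrays and replicate 3 of wt 1m, replicate 3 of wt 4m and replicate 2 of ko 4m, while the high set held 2 arrays of each other group. The same split of all 12 arrays came from the control probe sets alone, whose highest signal was 30483 to 37371 in the low set and 45943 to 56593 in the high set. Probe sets outside the family held the highest signal on every high-set array, so that they gave the same split was fixed in advance. The labels name no scan or batch that goes with it.

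Rps29, a small subunit protein, shows the size of the split. Its scaled signals were 49347, 46599.8 and 28822 in wt 1m, 31097, 32458 and 28710.1 in ko 1m, 45298, 42839 and 26864 in wt 4m, and 45379, 33028 and 44793 in ko 4m. All 6 arrays of the high set read above all 6 of the low set, whatever their group.

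The median signal of the 32 bright genes was 21401 to 26142 in the low set and 28953 to 33466 in the high set, with no overlap. Gene by gene, the median difference between the sets was 0.36 on the log2 scale, or 1.29-fold, and 31 of 32 genes were higher in the high set. Rpl11, which joins the 5S particle that binds Mdm2, was the exception with -0.08. In 19 of the 32, or 59.4%, every array of the high set read above every array of the low set, as did 1.16% of all probe sets tested. As the sets were drawn from the brightest probe sets, this is a description and was given no test.

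**Figure D1:**
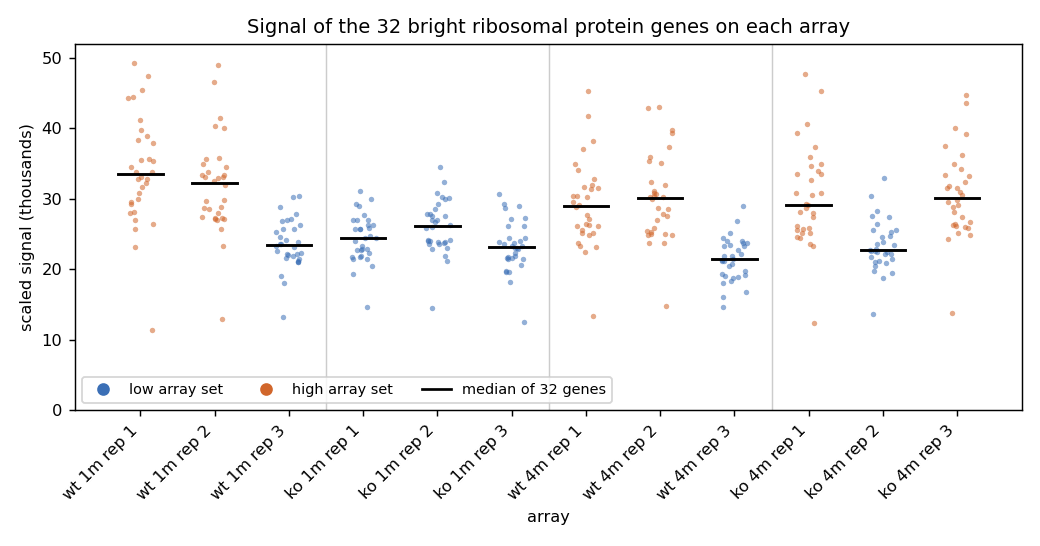
Scaled signal (in units of 1000) of the 32 bright ribosomal protein genes on each of the 12 arrays, 1 point per gene, with the median as a line and the array set as colour. The 6 low-set medians lie between 21401 and 26142 and the 6 high-set medians between 28953 and 33466, and the ko 1m group has no array in the high set.

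Other bright probe sets differed between the array sets in the same way. Among probe sets with a mean of 20000 to 30000, the median difference between sets was 0.31 for 42 family probe sets and 0.39 for 93 others. At 30000 and above it was 0.49 for 9 family probe sets and 0.60 for 39 others, and between 10000 and 20000 it was -0.08 for 7 and 0.07 for 262. Dimmer family probe sets varied in sign: between 3000 and 10000 the median was -0.47 for 8 of them and -0.03 for 1833 others, between 1000 and 3000 it was 0.06 for 4 and -0.02 for 5093, and between 100 and 1000 it was -0.11 for 17 and 0.04 for 17139. Tpt1 and Eef1a1, translation genes outside the family whose mRNAs also carry a TOP motif, had means of 41134 and 38335 and differed by 0.85 and 0.57.

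**Figure D2:**
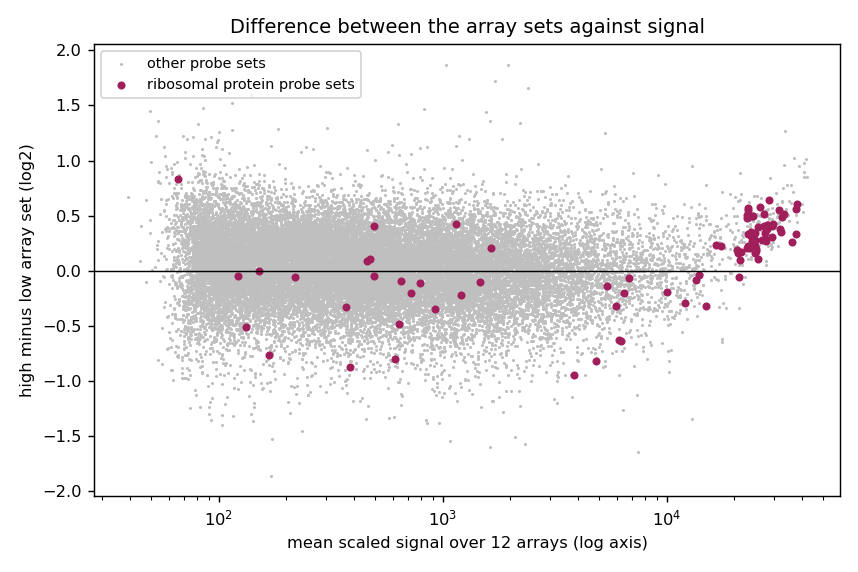
Mean log2 signal of the high array set minus the low array set, against the mean scaled signal over 12 arrays (log axis), for every probe set tested, with the 88 ribosomal protein probe sets marked. Differences rise above 0 for nearly all probe sets brighter than 20000, in the family (median 0.31 to 30000 and 0.49 above) and outside it (0.39 and 0.60).

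The first comparison asked what loss of Il1rn did to the family at 1 month. Of the 42 genes, 0 were called by limma and 3 had an unadjusted p under 0.05, against 0.444% called (0.203% higher, 0.24% lower) and 15.8% at the unadjusted threshold over all probe sets tested. The median log2 difference, ko minus wt, was -0.19 over the 42 genes and -0.02 over 12339 genes tested, and 34 of the 42 were below 0. Among the 32 bright genes the median was -0.27, with 31 below 0, while among the 10 dim ones it was 0.23, with 3 below 0. The largest negative values were Rps14 with -0.51, Rpl37a with -0.44, Rps29 with -0.40, Rpl38 with -0.39 and Rpl7a with -0.36, and the largest positive ones Rpl37 with 0.74, Rps4l with 0.52, Rpl27a with 0.42, Rpl14 with 0.40 and Rps27 with 0.30.

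The value differed when the array set was taken into account. With the array set as a block in the fit, the median over the 42 genes was 0.027, with 30 above 0, and that over the 32 bright genes was also 0.027, with 25 above 0. Within the low set, where 3 ko arrays meet 1 wt array and no test was made, the median was 0.06 and 34 of the 42 were above 0. At 1 month the high set holds no ko array, so the genotype difference and the array set can be told apart only through that 1 wt array. Neutrophil genes also moved at this age, 12 of 12 called higher in ko by limma, and their part in the family's values was not tested.

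Groups did not overlap for 3 of the 42 genes at 1 month, 2 higher and 1 lower in ko, against 19.9% of all probe sets (7.99% higher, 11.9% lower). Rps14 is a small subunit protein, 1 gene copy of which is lost in the 5q- syndrome. It read 44413, 41423 and 27882 in wt 1m and 26319, 25959 and 26174 in ko 1m. The third wt array, of the low set, lay closer to the ko arrays than to the other wt arrays, and the difference of -0.51 ± 0.21 (SE) had a limma adjusted p of 0.248. Rpl37, a large subunit protein read here by a dim probe set, went up from 327, 391 and 555 in wt 1m to 620.1, 859 and 688 in ko 1m, with a difference of 0.74 ± 0.25 that was not called (limma adjusted p = 0.182). Rpl14 was the third, with 0.40 ± 0.16 (limma adjusted p = 0.259). Within the low set these differences were -0.09 for Rps14, 0.35 for Rpl37 and 0.44 for Rpl14.

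At 4 months, with the same array sets in both genotypes, the family differed little between them. Limma called 0 of the 42 genes and 1 had an unadjusted p under 0.05, against 2.3% (1.78% higher, 0.518% lower) and 15.7% of all probe sets. The median difference was 0.06, against 0.02 over all genes, and it was 0.11 within the low set (1 array against 1) and 0.05 within the high set (2 against 2). The bright genes lay between -0.13 and 0.32, with a median SE of 0.18.

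Rps25 was the gene at 4 months whose groups did not overlap, against 22.3% of all probe sets (10.9% higher, 11.4% lower). It is a small subunit protein needed by several viral internal ribosome entry sites, and it read 2253, 1869 and 1863 in wt 4m and 1462, 1485 and 1745 in ko 4m, a difference of -0.34 ± 0.16 (SE, limma adjusted p = 0.291). The other large values were Rpl12 with -0.35, Rpl14 with -0.16, and Rpl39 and Rpl6 with -0.13 each, and on the positive side Rps4l with 0.85, Rpl27 with 0.32, Rps18 with 0.19, and Rps27 and Rps10 with 0.18 each. Rps4l rested on signals of 154, 24.1 and 164 in wt 4m and 144, 234 and 225 in ko 4m, and these overlapped (SE 0.46).

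**Figure D3:**
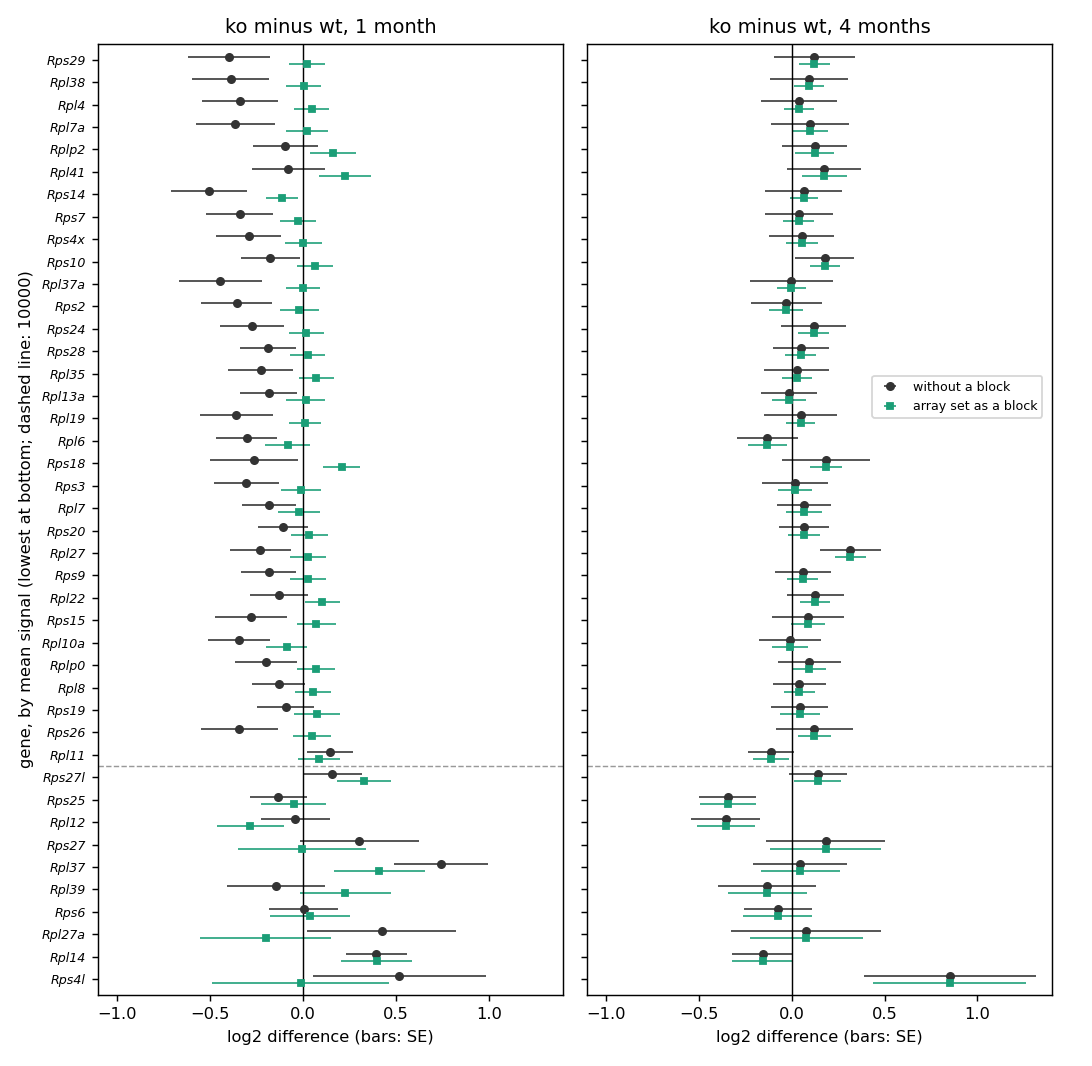
Log2 difference ko minus wt at 1 month (left) and 4 months (right) for the 42 tested genes, ordered by mean signal, with SE bars, without a block (circles) and after blocking on array set (squares). At 1 month 31 of the 32 bright genes lie below 0 without the block and 25 lie above 0 with it, while at 4 months both fits give the same values.

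For the change of the genotype difference between the ages, limma called 0 of 42 genes and 2 had an unadjusted p under 0.05, against 0.0481% (0.0296% higher, 0.0185% lower) and 8.65% of all probe sets. The median was 0.26 without the block and 0.022 with it. The largest values were Rps14 with 0.57 and Rpl27 with 0.55, and the smallest Rpl37 with -0.70 and Rpl14 with -0.55.

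Age gave the calls within the family. From 1 to 4 months in wild type, 1 of 42 genes was called lower and 0 higher, against 21.4% of all probe sets called (11.8% higher, 9.67% lower), and 4 had an unadjusted p under 0.05, against 34.4%. In the deficient mice 2 of 42 were called, both lower, against 22.9% of all probe sets (13.6% higher, 9.25% lower), and the same number had an unadjusted p under 0.05, against 35.1%. The ages did not overlap for 2 genes higher and 2 lower in wild type, against 31.6% of all probe sets (18.4% higher, 13.2% lower), and for 2 higher and 3 lower in the deficient mice, against 46.6% (28.3% higher, 18.2% lower). The family's share of calls was below the background in both genotypes in this fit. Blocking on array set gave 8 of 42 in wild type (1 higher, 7 lower), against 24.1% of all probe sets (13.4% higher, 10.8% lower). That total was near the background, though most of these calls were lower. In the deficient mice the block gave 2 of 42, both lower, against 4948 of 27041 probe sets. The median difference was -0.14 in wild type and 0.14 in the deficient mice, against 0.08 and 0.09 over all genes. With the array set as a block, these were -0.14 and -0.11, and within the low set -0.14 and -0.08, so in the deficient mice the sign differed between the fits. All 3 ko 1m arrays are in the low set, and within it 1 ko 4m array meets them. From the deficient mice alone, age and array set can be told apart only through that 1 array. The block fit also uses the difference between the sets in wild type, taken to be the same in all groups.

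Rps27l, the paralog of Rps27 and a known p53 target, was lower at 4 months in both genotypes. Its brightest probe set read 7777, 8743 and 6263 in wt 1m and 4867, 6194 and 4752 in wt 4m. In the deficient mice it read 7527, 7963 and 9909 at 1 month and 6022, 5363 and 5957 at 4 months. In each genotype, every 4-month array lay below every 1-month array. The fall was by 0.52 ± 0.16 (SE) in wild type and 0.54 ± 0.16 in the deficient mice on the log2 scale, 1.44-fold and 1.45-fold (limma adjusted p = 0.0266 and 0.0207).

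The other probe sets of Rps27l gave the same picture. With means of 6442 and 5408, they fell by 0.56 and 0.47 in wild type (limma adjusted p = 0.00515 and 0.0187) and by 0.65 and 0.59 in the deficient mice (limma adjusted p = 0.00185 and 0.00462). The probe sets stand for 1 gene and share its samples, so they are not independent of each other. The brightest one was also lower with age within each array set, by 0.40 and 0.58 in wild type and by 0.65 in the deficient mice of the low set. The fall did not differ detectably between genotypes, with an interaction of -0.02 ± 0.22 (limma adjusted p = 0.989). Without wt 1m replicate 1, wt 1m replicate 2, wt 4m replicate 1 or wt 4m replicate 3 the call in wild type was lost, as it was in the deficient mice without ko 1m replicate 3 or any 1 of the ko 4m arrays (limma adjusted p up to 0.102 and 0.104). The probe set with a mean of 6442 kept its call in both genotypes under every setting tried, with limma adjusted p up to 0.027 and 0.0129. The one with a mean of 5408 kept its call in the deficient mice under every setting, and lost that in wild type without wt 1m replicate 1, wt 4m replicate 1 or wt 4m replicate 3 (limma adjusted p up to 0.0816).

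Rpl14, a large subunit protein, was called lower with age in the deficient mice. Its probe set, the 1 it has, read 389, 397 and 372 in wt 1m, 578, 482 and 498 in ko 1m, 353, 257 and 315 in wt 4m, and 266, 273 and 275 in ko 4m. The ko 1m arrays were above all others and the ko 4m arrays within the range of wt 4m. The fall in the deficient mice was by 0.86 ± 0.16 (SE) on the log2 scale, 1.81-fold (limma adjusted p = 0.00163), and it was called in all 23 other settings. In wild type the difference was -0.31 ± 0.16 (limma adjusted p = 0.199), and the difference between the genotypes, -0.55 ± 0.23, was not called (limma adjusted p = 0.528). With a mean of 371, this probe set is 1 of the dim ones, and its promoter's pyrimidine tract is the 14-base run shown above.

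**Figure D4:**
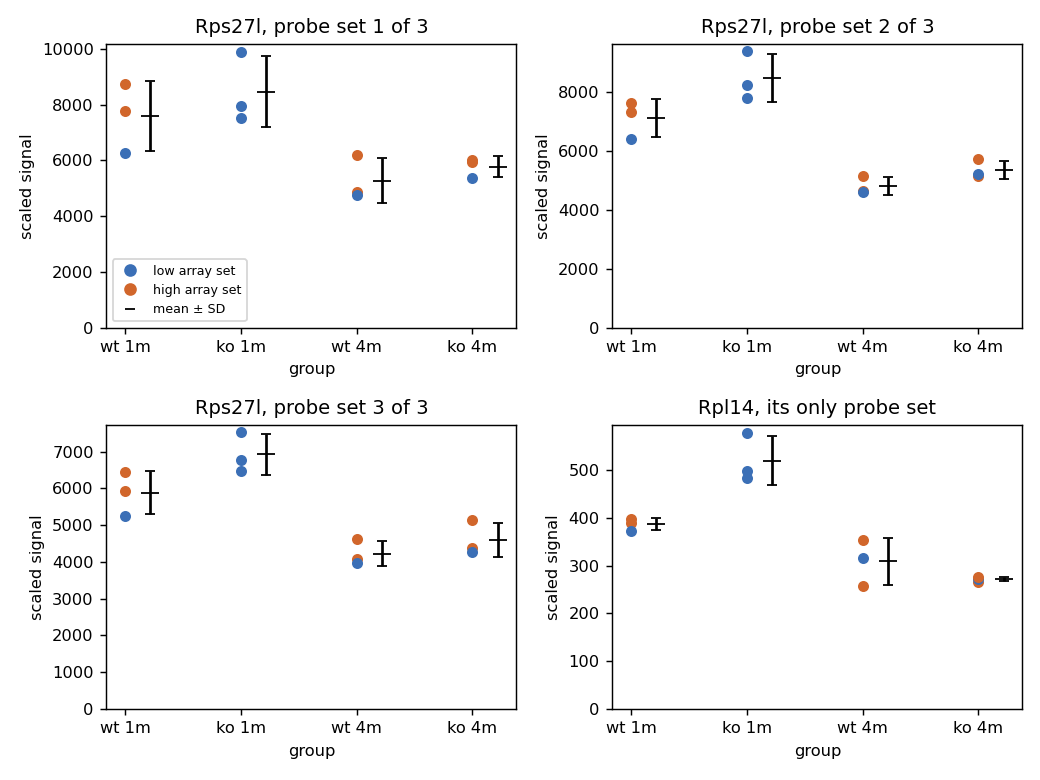
Scaled signal of the 3 Rps27l probe sets and the Rpl14 probe set in the 4 groups, 1 point per mouse coloured by array set, with mean ± SD (n = 3) beside them. The 3 Rps27l probe sets are lower at 4 months in both genotypes, and Rpl14 is highest in ko 1m (482 to 578) and closest together in ko 4m (266 to 275), where it lies within the range of wt 4m (257 to 353).

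The cell makeup of the spleen moved with age as well, and its part in these falls was not tested. Called lower from 1 to 4 months were 12 of 12 neutrophil genes in both genotypes, 8 of 8 measured erythroid genes in wild type and 5 in the deficient mice, and 11 of 11 measured cell cycle genes in wild type and 9 in the deficient mice. The summed neutrophil signal was 44816 to 55087 in wt 1m, 130263 to 161887 in ko 1m, 9925 to 14974 in wt 4m and 52798 to 70360.2 in ko 4m. The summed cell cycle signal ranged from 100575 to 141701 in wt 1m, 108903 to 117058 in ko 1m, 39036 to 60237 in wt 4m and 65891 to 74842 in ko 4m. B cell genes rose, with 8 of 9 called higher in each genotype. The summed erythroid signal was 91957 to 121023 in wt 1m, 95016 to 107045 in ko 1m, 32485 to 55099.9 in wt 4m and 70629 to 80059.6 in ko 4m.

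The remaining members gave values without a call for age. In wild type the lowest after Rps27l were Rps4l with -0.34 and Rps26, Rps14 and Rpl14 with -0.31 each, and the highest Rps27 with 0.69, Rpl37 with 0.64, Rps25 with 0.36, Rpl11 with 0.19 and Rpl12 with 0.18. In the deficient mice the lowest after Rpl14 and Rps27l were Rpl27a with -0.50, Rps6 with -0.27 and Rpl12 with -0.13, and the highest Rps27 with 0.57, Rps29 with 0.40, Rpl37a with 0.37, Rpl38 with 0.36 and Rps15 with 0.35. The 8 called in wild type with that block were Rpl37, higher, and Rps27l, Rps14, Rps26, Rpl27, Rps2, Rpl7a and Rpl35, lower, the last 6 by 0.23 to 0.31 on the log2 scale with limma adjusted p of 0.0081 to 0.05.

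The P stalk, which recruits elongation factors to the ribosome, was read by Rplp0 and Rplp2. Rplp0 read 30879, 25735 and 21456 in wt 1m, 21752, 23966 and 21570.2 in ko 1m, 23269, 25429 and 18370.3 in wt 4m, and 25932, 19544 and 26202 in ko 4m. Rplp2 had 29504, 33072 and 30307 in wt 1m, 26968, 29324 and 30745 in ko 1m, 38198, 35916 and 25147 in wt 4m, and 40602, 27451 and 40068 in ko 4m. All 4 groups overlapped for Rplp0, and neither gene was called in any comparison. By subunit, the median difference at 1 month was -0.23 over the 15 bright large subunit genes and -0.28 over the 15 bright small subunit genes, and the difference between subunits was not tested.

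Genes with several probe sets show how far the reading depends on the probe. Of 19 genes with several tested probe sets, the widest range of the 1-month difference was in Rps10, Rps24, Rpl13a, Rpl22 and Rps18. In Rps10, a small subunit protein, the brightest probe set (mean 29348) gave -0.18 and one with a mean of 3857 gave 1.72 ± 0.45 (SE, limma adjusted p = 0.0995). The latter read 1565, 1719 and 1565 in wt 1m and 2914, 3759 and 14256 in ko 1m, so 1 ko array was far above the other pair. At 4 months the widest ranges were in Rps10, Rpl37a, Rps24, Rps9 and Rps18.

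Rpl13a, a large subunit protein that also silences inflammatory mRNAs in the GAIT complex, had calls on its dimmer probe sets and none on its brightest. Its probe set with a mean of 4822 read 7516, 7094 and 7311 in ko 1m and 3248, 4142 and 2864 in ko 4m. This was a fall by 1.11 ± 0.20 (SE) on the log2 scale (limma adjusted p = 0.00101), and one with a mean of 10059 fell by 0.58 ± 0.12 (limma adjusted p = 0.00271). The probe sets with means of 23037 and 27379.9 gave 0.26 and 0.15 and were not called. In wild type the probe set with a mean of 4822 read 3980, 3820 and 6250 at 1 month and 3341, 3399 and 4893 at 4 months. Every low-set array, the ko 1m arrays among them, read above every high-set array on it. Its difference between the array sets, high minus low, was -0.82. Dim probe sets of Rpl37a (mean 1139, -1.12 with age in wild type, limma adjusted p = 0.0223) and Rpl41 (mean 924, -0.57 with age in the deficient mice, limma adjusted p = 0.037) were also called while brighter ones of the same genes were not. The Rpl37a call was lost without wt 1m replicate 1, wt 4m replicate 2 or wt 4m replicate 3, and the Rpl41 call without any 1 array of the deficient mice and also with the array set as a block, with no filter or with no trend in the prior variance (limma adjusted p up to 0.0974 and 0.167). Without that trend the Rpl37a call was lost as well. The Rpl13a calls were kept in all 23 other settings. There the log2 difference of the probe set with a mean of 4822 lay between -1.26 and -0.60.

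**Figure D5:**
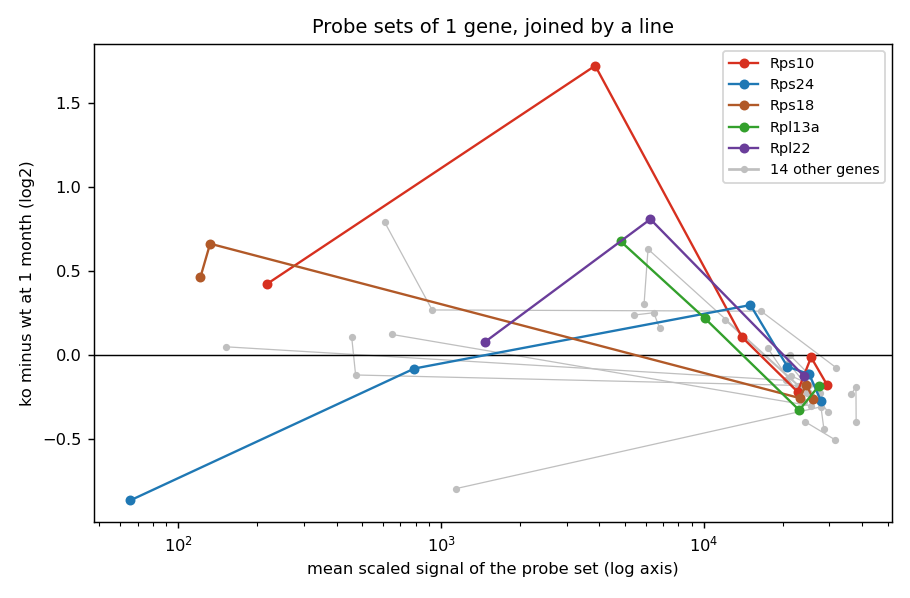
Log2 difference ko minus wt at 1 month for each tested probe set of the 19 genes with several, against its mean scaled signal (log axis), with the probe sets of a gene joined by a line and the 5 genes with the widest range in colour. Probe sets brighter than 20000 lie close together at or below 0, while dimmer ones of the same genes spread from -0.87 to 1.72.

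The probe sets that list a family symbol among several behaved like the members. Of 105 tested, 76 had a mean of at least 10000, and these differed between the array sets by a median of 0.35. Their median at 1 month was -0.22, with 66 of 76 below 0, and at 4 months 0.07. Limma called 0 of the 105 in either genotype comparison. An unadjusted p under 0.05 was found for 9 and 3, against 15.8% and 15.7% of all probe sets. With age, 0 were called in wild type, against 21.4% of all probe sets. In the deficient mice 5 were called lower, against 9.25%, and 0 higher, against 13.6%. None of the 76 bright ones was among those 5. All 110 probe sets with several symbols cover 43 family symbols, 28 of which are on no probe set of their own. Rpsa and Fau, ribosomal proteins named outside the pattern, gave -0.19 and -0.39 at 1 month and 0.01 and 0.05 at 4 months, uncalled.

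Genes tied to Diamond-Blackfan anaemia were counted as a list, and 12 of 21 were measured, all but Rps27 and Rpl11 with means above 20000. Limma called 0 of them in any of the 5 comparisons, with 1 at an unadjusted p under 0.05 for age in wild type and 1 for the interaction. Their median at 1 month was -0.21 and at 4 months 0.09. Rps19, the member most often affected, read 23118, 23276 and 22537 in wt 1m, 22705, 24162 and 18200.1 in ko 1m, 25131, 25831 and 18883 in wt 4m, and 24578, 20835 and 26249.6 in ko 4m. Its groups overlapped at both ages and its difference between the array sets was 0.22.

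Genes that make and run the ribosome were also called for age, beside 21.4% of all probe sets in wild type and 22.9% in the deficient mice. Of 56 ribosome biogenesis factors measured, 2 were called higher and 4 lower with age in wild type and 0 and 11 in the deficient mice, with medians of -0.00 and -0.19. Dkc1, the pseudouridine synthase of ribosomal RNA, read 1886, 2650.3 and 2267 in wt 1m, 2515, 3544 and 2678 in ko 1m, 1183, 1319 and 1117 in wt 4m, and 1175, 1744 and 1288 in ko 4m. It fell by 0.88 and 1.04 on the log2 scale (SE 0.18 each, limma adjusted p = 0.0025 and 0.000805), with no overlap between ages in either genotype. Bysl, Nop58 and Rrp15, which act in subunit assembly, fell by 0.76, 0.61 and 0.84 in the deficient mice (limma adjusted p = 0.00336 to 0.00542). Of 12 RNA polymerase I genes, Taf1a was called higher in wild type, and Polr1d and Polr1c lower in the deficient mice, each kept in 13 of 23 other settings. Taf1a lost its call after quantile normalization or centring on the median and without wt 1m replicate 1, wt 4m replicate 1 or 3, or ko 1m replicate 2. Polr1d and Polr1c lost theirs with the array set as a block, without ko 1m replicate 1 or 2 and without ko 4m replicate 1 or 3, Polr1d also without ko 1m replicate 3 and Polr1c without ko 4m replicate 2 (limma adjusted p up to 0.164, 0.546 and 0.183).

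The elongation factor list, not all of whose genes are elongation factors, had 8 measured genes. Of these, 3 were called lower with age in each genotype: Eef2k, Eef1e1 and Eef1d. Over all probe sets, 9.67% were called lower in wild type and 9.25% in the deficient mice. Eef2k, the kinase that inhibits elongation factor eEF2, fell by 1.20 in wild type and 0.81 in the deficient mice (SE 0.17, limma adjusted p = 9.87e-05 and 0.00268). It was also higher in ko than in wt at 4 months, 1264, 1506 and 1374 against 731, 879 and 867, by 0.72 ± 0.17 (limma adjusted p = 0.03), a call that was lost without any 1 ko 4m array or without wt 4m replicate 1 or 3 (limma adjusted p up to 0.119). The Eef1d call in wild type was kept in 12 of 23 other settings and lost without any 1 wt 4m array, wt 1m replicate 1 or 3, ko 1m replicate 1 or ko 4m replicate 3 (limma adjusted p up to 0.152). Of 30 initiation factors, 2 were called higher and 5 lower in wild type, and 1 and 4 in the deficient mice. Eif1ax, which helps to select the start codon, fell by 0.64 and 0.77 (limma adjusted p = 0.00161 and 0.000442).

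Mitochondrial ribosomal proteins are a separate family that builds the ribosome inside mitochondria. With age, 14 of 76 were called lower and 0 higher in wild type, against 21.4% of all probe sets (11.8% higher, 9.67% lower). In the deficient mice these were 18 and 0 of 76, against 22.9% (13.6% higher, 9.25% lower). Mrpl51 fell by 0.83 and 0.81 on the log2 scale (SE 0.12, limma adjusted p = 0.00015 and 0.000283). Of 18 mTOR and TOP mRNA regulators, Eif4ebp1 was called lower with age in wild type and in the deficient mice, and Larp1 in the deficient mice, by 0.50 (limma adjusted p = 0.0154). Among 5 genes of the 5S particle and Mdm2 axis, Mdm4 was called higher with age in wild type, by 0.82 ± 0.23 (limma adjusted p = 0.0199). Without wt 1m replicate 1, wt 4m replicate 1 or wt 4m replicate 3 the Mdm4 call was lost, and the Eif4ebp1 call in wild type without wt 1m replicate 1 or 3 or wt 4m replicate 1. Without ko 1m or ko 4m replicate 1 or 3, the Eif4ebp1 and Larp1 calls in the deficient mice were lost (limma adjusted p up to 0.173 and 0.067). The array set as a block also ended that of Eif4ebp1, and the block after quantile normalization both. Whether any of these lists differed from the ribosomal protein genes was not tested.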

How the data were processed

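RNA from 12 mouse spleens was measured on Affymetrix arrays. The deposited values are signal intensities on a linear scale, made by the authors with MAS5 per the submitters' processing notes; version, genome build and detection calls are not given in the sources used here. There are 45101 probe sets on the array, 64 of them controls, which were left out; 34945 have 1 gene symbol, 932 several and 9160 none. No sample column was unused (0). Signals were put on a common 2% trimmed mean of 500, which they already had, and log2 was taken after 32 was added. Probe sets that reached 100 on 3 or more arrays were tested with limma 3.58.1 (lmFit, eBayes with trend, 2-sided) in R 4.3.3, on 4 group means with 8 residual degrees of freedom. P-values were adjusted by Benjamini-Hochberg over all 27041 probe sets. The number of arrays limits the precision. The test was checked on simulated data.

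The members, gene lists and tests were chosen with earlier results of these data known. Genes named are Il1rn, the P stalk genes and paralogs, called members, the 5 largest values each way per comparison (fewer for the interaction), the brightest and dimmest members, the 5 genes whose probe sets differ most, and up to 4 called genes per list; Rpsa, Fau, Rps19, Rps6, Tpt1 and Eef1a1 were added after their values were seen. Alternatives were other scalings, offsets, filters, prior variance, probe sets per gene, replicate and array set blocks, and leaving out each array.

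The replicate numbers gave no sign of pairing. Residuals of same-numbered arrays of different groups correlated between -0.20 and 0.21 over 18 pairs. For differently numbered arrays this was -0.20 to 0.25 over 36 pairs. Such values cannot show that the mice were unpaired. Genes in families with near-identical copies share probes, and the signal of such a probe set can include those copies.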

Additional observations from a re-analysis of the deposited data

How the results depend on the processing

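The counts of 0 called members at 4 months and for the interaction were 0 under all alternatives, with each array left out in turn as well. At 1 month the count was 0 to 2 with 1 array left out: without wt 1m replicate 3, Rpl37 and Rps14 were called (limma adjusted p = 0.0494 and 0.0462). For age in wild type it was 0 to 5, with 0 without wt 1m replicate 1, wt 1m replicate 2 or wt 4m replicate 3 and 5 without wt 1m replicate 3. For age in the deficient mice it was 1 to 2.

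The median difference at 1 month, -0.19, was 0.021 after quantile normalization, -0.028 with arrays centred on their medians, 0.027 when array set was a block and -0.019 with quantile normalization and that block together, a setting chosen after the data were seen. For age in the deficient mice, 0.14 became -0.018 after quantile normalization and -0.11 with the set block. For the interaction, 0.26 became -0.020, 0.022 and 0.017 with quantile normalization, the block and both. For age in wild type the median was -0.31 to -0.0043 with 1 array left out. Centring on the median moved the median of all probe sets by 0.16 at 1 month, -0.15 for age in the deficient mice and -0.13 for the interaction; quantile normalization moved it by -0.10 for age in the deficient mice.

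The count for age in wild type, 1, was 0 without a trend in the prior variance, 2 with any probe set of a gene counted, 2 with the replicate number as a block (Rps27l and Rpl37), 8 with the set block and 2 with that block after quantile normalization. For age in the deficient mice, 2 became 1 after quantile normalization and 4 with any probe set of a gene. After quantile normalization Rps27l lost both calls and Rpl11 was called higher with age in wild type (0.36, limma adjusted p = 0.0425). The causes were not tested. The replicate block changed no other call of the 42 genes. Outside the family, Taf1a and Polr1c lost their calls under it.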
